A study of Mus musculus with 16 samples.

Results

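The genes described here are 8 genes of cholesterol synthesis (*Hmgcs1*, *Sqle*, *Srebf2*, *Idi1*, *Fdft1*, *Lss*, *Cyp51* and *Insig1*), taken as a fixed list of targets and regulators of the transcription factor SREBF2, in brown adipose tissue (BAT) of male and female mice. They are 8 of the 49066 gene symbols obtained from the deposited transcript table, and all 8 were found and measured in all 16 libraries. By role, 6 encode enzymes of the pathway, while *Srebf2* and *Insig1* encode regulators of it. They were listed by name and not by a cut-off on measured values, but with earlier results of these data known. No p-value is therefore given for the list as a whole.

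Bulk mRNA of BAT was sequenced in 16 libraries, 4 for each combination of sex and genotype (WT or KO), from mice on the C57BL6/J background. KO mice (GDF15 BKO) carried *Gdf15* floxed alleles together with a transgene that expresses Cre recombinase from the *Ucp1* promoter, and WT mice were homozygous for the same floxed alleles without Cre, so that both genotypes carried the floxed gene. The *Ucp1* promoter is active in thermogenic adipocytes, so the other cells of the tissue keep *Gdf15* in KO mice. All mice were fed a high-fat diet (HFD, 60% of kcal from fat) from 6 weeks of age for 12 weeks and were 18 weeks old. The number of mice given for each group equals its number of libraries, while the labels do not tie a library to a mouse, so p-values measure the spread between libraries.

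Cells build cholesterol from acetyl-CoA through the mevalonate pathway. SREBF2 is held in the endoplasmic reticulum membrane by SCAP and the INSIG proteins when sterols are plentiful. When sterols fall, it moves to the Golgi, is cut by proteases, and its released part enters the nucleus and switches on the genes of the pathway and its own gene. SREBF1, a related factor, acts mainly on fatty acid synthesis. Brown adipocytes make large amounts of fatty acids, while sterols are needed for their membranes and lipid droplets.

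SREBF2 binds sterol regulatory elements, short motifs near the start of its target genes, and the promoter windows below show such letters in an enzyme gene and in the gene of the factor itself. RefSeq promoters, which run from upstream of the start to shortly after it, were at hand for 6 members and were not matched for *Sqle* and *Fdft1*. Each window below lies on the plus strand of GRCm38.p6, chr13:119690164-119690271 for *Hmgcs1* and chr15:82147057-82147164 for *Srebf2*, and the capitals mark TCACCCCA.
Hmgcs1: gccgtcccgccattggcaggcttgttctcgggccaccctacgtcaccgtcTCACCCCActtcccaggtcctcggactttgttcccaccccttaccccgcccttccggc
Srebf2: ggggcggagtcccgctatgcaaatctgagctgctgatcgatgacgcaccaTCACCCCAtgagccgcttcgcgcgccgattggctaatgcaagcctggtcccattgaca

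The capitals began 137 bases before the start of *Hmgcs1* and 162 bases before that of *Srebf2*. TCACCCCA was chosen after the letters of these promoters had been seen, and 1.56% of 32851 RefSeq promoters of the same length held it on either strand. The overlapping motif CACCCCAC was in 1 of the 6 member promoters, that of *Hmgcs1*, against 2.87% of all promoters. Its looser form CACNCCAC was in those of *Hmgcs1* and *Insig1*, against 6.24% of all promoters. SREBF2 acts together with the factors NFY and SP1 at many of its targets. The NFY motif CCAAT was in 6 of 6 member promoters and in 37.4% of all promoters on either strand. Letters of the kind bound by SP1, written GGGCGG, were likewise in 6 of 6 and in 35.7% of all. These matches describe letters in the windows and were not tested as binding sites. The start that RefSeq gives for *Hmgcs1* was not the start of any GENCODE transcript, unlike those of the other 5.

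The values are TPM, which are corrected for transcript length and add up to the same total in every library, so read depth is unknown. Brown adipocyte markers summed to between 6072 and 12770 TPM, with all 9 above a mean of 1 TPM, and mitochondrial transcripts took 34.5 to 59.8% of the TPM. *Gdf15* ranged from 0.368 to 3.81 TPM in male WT, from 0.0801 to 0.272 in male KO, from 0.0622 to 0.311 in female WT and from 0 to 0.0794 in female KO, where 3 of 4 libraries were listed at 0. The male groups did not overlap (exact two-sided permutation p = 0.0286, the smallest possible with 4 against 4), and the female groups did (p = 0.0571). Female WT replicate 4 stood apart, since 17.7% of its TPM lay in transcripts without a match in the annotation, against 0.333 to 0.480% in the other 15 libraries. The library names carry a prefix (5, 8b, 9 or 10) that is unevenly spread over the groups and whose meaning is not given. Macrophage markers were higher in male KO (122.6 to 178.5 summed TPM) than in male WT (48.0 to 95.6) or female KO (78.8 to 114.7), and fibroblast markers were higher in male KO (230.4 to 242.1) than in male WT (109.2 to 192.2), each with exact p = 0.0286. Endothelial markers were higher in female KO (366.3 to 728.7) than in female WT (219.5 to 338.3; exact p = 0.0286). In bulk tissue, fewer cells of a type and less RNA per cell cannot be told apart, and the part of these cell types in the results below was not tested.

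The members spanned a wide range of levels. *Hmgcs1*, which makes HMG-CoA and so feeds the pathway, had the highest mean (87.4 TPM over 16 libraries), followed by *Insig1*, which retains the SREBF2 precursor and is itself an SREBF2 target (60.5 TPM), and the ranges of these 2 genes overlapped. *Srebf2* (9.88 TPM), *Fdft1* (9.33), *Lss* (8.43) and *Idi1* (7.14) lay close together, and their ranges over the libraries overlapped. *Cyp51* (3.43 TPM) and *Sqle* (2.02) were the lowest, and the range of *Cyp51* (2.17 to 4.57) overlapped that of *Sqle* (1.10 to 3.10). TPM are corrected for length, so these levels can be set beside each other.

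*Hmgcs1* carried the clearest difference between groups. Its TPM were 93.6, 80.2, 112.5 and 99.0 in male WT and 101.0, 119.4, 104.5 and 115.4 in male KO. In females it was 75.1, 100.6, 101.6 and 59.6 in WT and 40.3, 77.8, 65.4 and 52.2 in KO. Every female KO library lay below every male KO library, and within each sex WT and KO overlapped. By mean, the order was male KO (110.1 ± 8.75, SD, n = 4), male WT (96.3 ± 13.4), female WT (84.2 ± 20.5) and female KO (58.9 ± 16.2), and neighbours in this order overlapped.

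The other 2 early members were *Idi1*, which isomerizes isopentenyl diphosphate, and *Fdft1*, squalene synthase, the first enzyme committed to sterols. *Idi1* was at 5.51, 6.22, 9.68 and 8.07 TPM in male WT and at 6.21, 9.03, 8.41 and 8.50 in male KO. Female WT libraries held 7.03, 8.76, 8.46 and 7.01 TPM of *Idi1*, and female KO libraries 3.91, 7.25, 6.73 and 3.47. Female KO replicates 1 and 4 were the lowest of all 16 libraries, while replicate 2 lay inside the range of female WT and replicate 3 just below it. *Fdft1* was the most variable member, at 6.71, 7.13, 9.94 and 11.2 TPM in male WT and 5.46, 14.7, 11.5 and 7.50 in male KO. It reached 9.07, 14.2, 8.36 and 1.71 TPM in female WT and 7.11, 12.4, 16.1 and 6.07 in female KO. All 4 groups overlapped, and the value of 1.71 belonged to female WT replicate 4.

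The 3 later enzymes were *Sqle*, squalene epoxidase, a flux-controlling step, *Lss*, which closes the ring to lanosterol, and *Cyp51*, which removes a methyl group from lanosterol. *Sqle* was at 1.27, 1.32, 2.76 and 2.36 TPM in male WT and 1.87, 3.02, 2.50 and 2.69 in male KO. In females *Sqle* was at 1.67, 3.10, 1.78 and 2.31 TPM in WT and 1.10, 1.67, 1.76 and 1.11 in KO. Female KO lay below male KO in every library, and otherwise the groups overlapped. *Lss* was at 8.78, 8.49, 9.29 and 6.22 TPM in male WT, 8.60, 13.1, 10.9 and 8.52 in male KO, 10.3, 6.996, 8.20 and 8.97 in female WT and 5.25, 8.90, 7.65 and 4.73 in female KO. Replicates 1 and 4 of female KO were again the lowest of the 16. *Cyp51* was at 2.25, 3.41, 4.15 and 3.14 TPM in male WT, 2.53, 3.47, 3.35 and 4.57 in male KO, 3.35, 4.19, 4.33 and 3.67 in female WT and 2.17, 3.79, 3.39 and 3.20 in female KO. For *Cyp51* all groups overlapped.

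The regulators varied less between groups than *Hmgcs1*. *Srebf2* was at 6.70, 9.04, 10.2 and 9.16 TPM in male WT, 9.58, 11.5, 12.1 and 11.9 in male KO, 12.5, 8.73, 9.63 and 8.76 in female WT and 9.66, 10.6, 8.94 and 8.94 in female KO. Male KO was high but overlapped male WT through 1 library of each group. *Insig1* was at 48.0, 62.4, 71.0 and 64.6 TPM in male WT, 42.1, 54.0, 55.3 and 74.1 in male KO, 71.6, 72.0, 69.4 and 46.5 in female WT and 59.6, 70.5, 50.8 and 56.4 in female KO. Its groups overlapped throughout, and female WT replicate 4 lay well under the other female WT libraries.

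**Figure D1:**
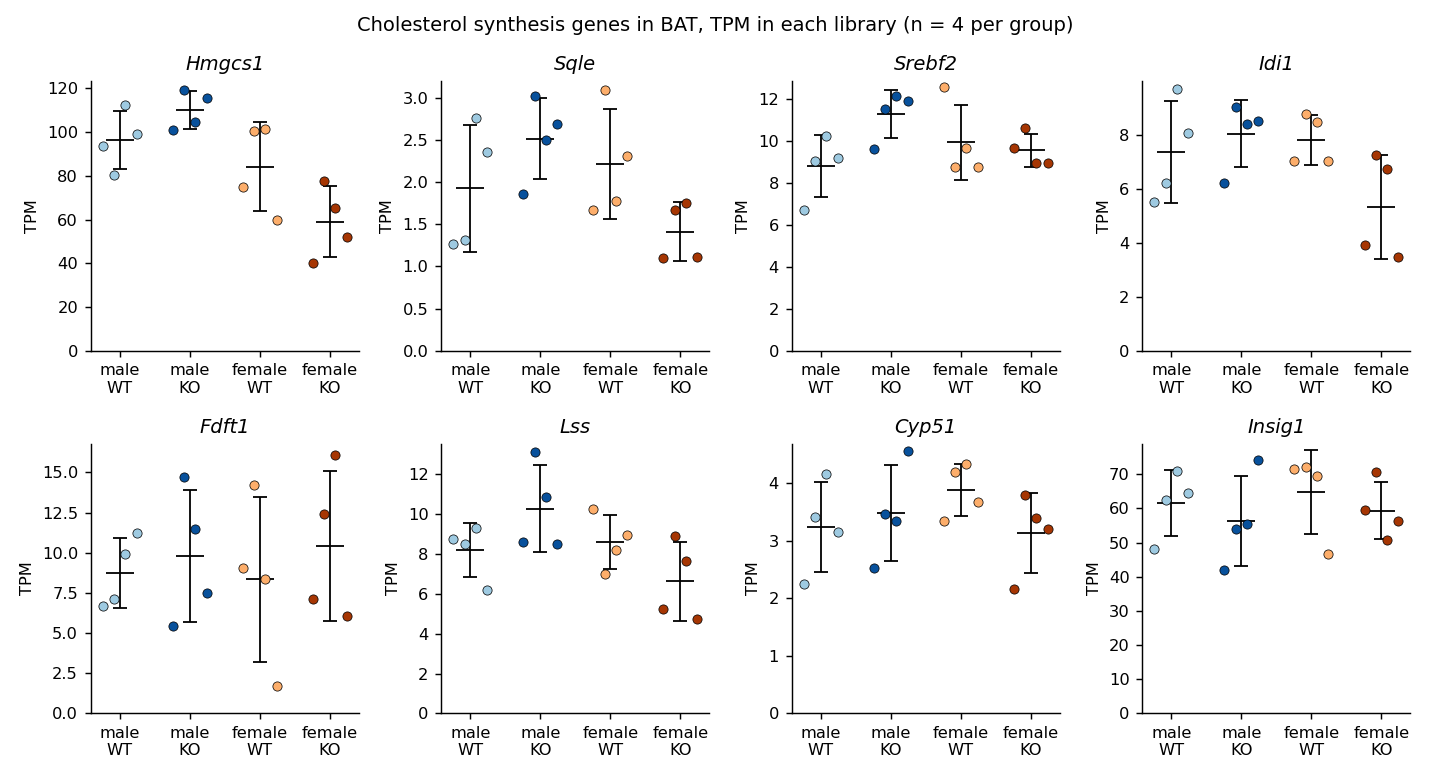
TPM of each of the 8 members (y axis, linear, from 0) in the 4 groups (x axis); points are libraries in the order of their replicate numbers, and bars are the mean ± SD (n = 4). For *Hmgcs1*, the 4 female KO libraries sit between 40.3 and 77.8 TPM, under the 4 male KO libraries at 101.0 to 119.4.

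The design first asks how loss of *Gdf15* in thermogenic adipocytes moved these genes within each sex. In males, 0 of the 8 members passed the adjusted threshold of 0.05 in limma's test across 12177 genes, where 0.00821% of all genes did. Relative to WT, 1 member, *Srebf2*, was higher at an unadjusted p under 0.05 (17.7% of all genes were), and 0 were lower (1.07% of all genes). *Srebf2* had a log2 fold change of 0.35 (SE 0.14, 95% interval 0.04 to 0.67) with an adjusted p of 0.236. *Sqle* had a log2 fold change of 0.35 (interval -0.18 to 0.88), *Lss* of 0.30 (-0.08 to 0.69) and *Hmgcs1* of 0.20 (-0.08 to 0.47). The remaining values ran from -0.14 for *Insig1* to 0.14 for *Idi1*, with *Fdft1* and *Cyp51* both at 0.09. All 8 members had a median log2 fold change of 0.17, beside a median of 0.16 over all genes tested. Median-of-ratios scaling of the libraries moved the median of all genes to 0.00 and that of the members to -0.00, with 4 members below 0, among them *Idi1*, *Fdft1* and *Cyp51*, which changed sign. After this scaling 0 members were higher at an unadjusted p under 0.05 (1010 of all 12177 genes). *Srebf2* was then at 0.19 (limma adjusted p 0.422). Within the libraries of prefix 9 (2 WT and 3 KO), the members' median was 0.065.

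In females, 0 of the 8 members passed the adjusted threshold, as did 0% of the 12141 genes tested. Lower values in KO at an unadjusted p under 0.05 were seen for 2 members (5.46% of all genes), and higher values for 0 (11.6% of all genes). These were *Idi1*, with a log2 fold change of -0.57 (SE 0.23, interval -1.08 to -0.05, adjusted p 0.268), and *Sqle*, with -0.50 (SE 0.22, interval -0.99 to -0.00, adjusted p 0.291). *Hmgcs1* was at -0.52 (interval -1.08 to 0.04), *Lss* at -0.38 (-0.85 to 0.08), *Cyp51* at -0.29 (-0.66 to 0.09), *Insig1* at -0.12 (-0.52 to 0.29) and *Srebf2* at -0.04 (-0.35 to 0.27). *Fdft1* stood on the other side, at 0.49 with a wide interval (-0.75 to 1.74), and without female WT replicate 4 it was at -0.08. The median of the members was -0.33 and that of all genes tested was 0.10, and 7 of 8 members were below 0 (4531 of all 12141 genes). After median-of-ratios scaling these medians were -0.43 and 0.01. Then 3 members were lower at an unadjusted p under 0.05 (1264 of all 12141 genes). Within prefix 10 (1 library of each genotype) the median was -0.48, and within prefix 8b (3 WT and 1 KO) it was -0.23.

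**Figure D2:**
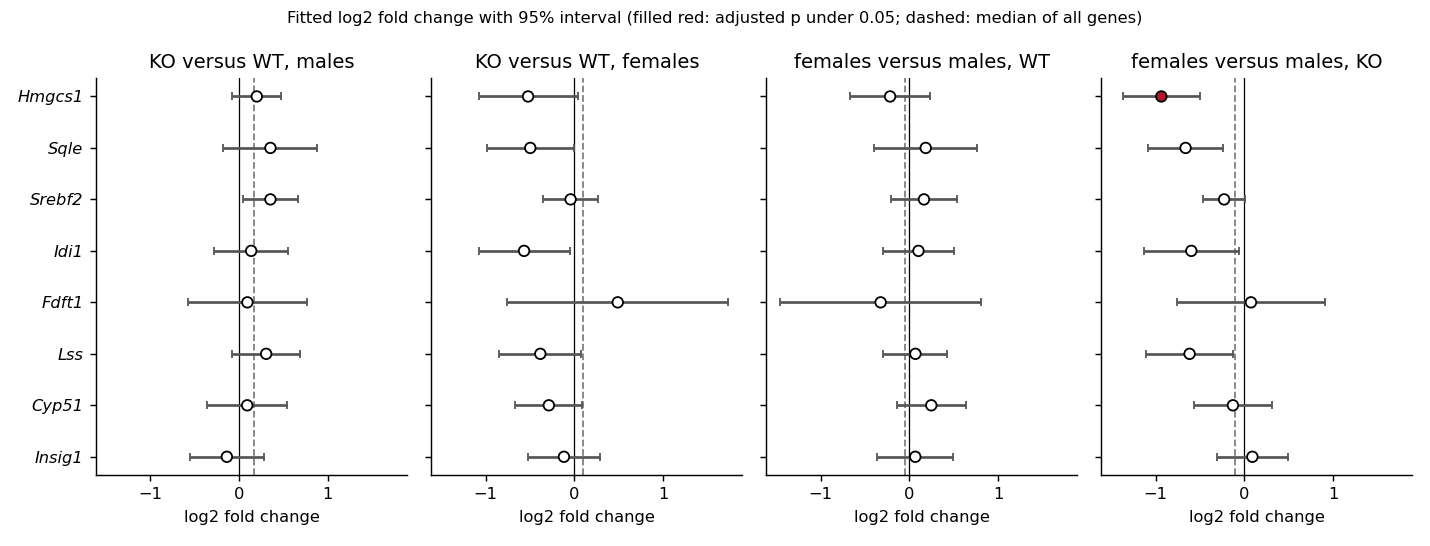
Log2 fold change of each member on the log2(TPM + 0.5) scale (x axis) with its 95% interval from limma in 4 comparisons; filled red points have an adjusted p under 0.05, the solid line is 0 and the dashed line is the median of all genes tested. *Hmgcs1* in females against males of the KO genotype, at -0.93, is the one filled point.

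An interaction term, fitted to all 16 libraries, asked whether the KO effect in females differed from that in males. None of the members passed (0 of 8, with 0% of 12210 genes), and the lowest adjusted p was 0.272, for *Sqle*. At an unadjusted p under 0.05, 4 members had a lower KO effect in females than in males (11.7% of all genes), and 0 had a higher one (2.51%). Those 4 were *Sqle* (log2 difference -0.85, SE 0.32), *Hmgcs1* (-0.72, SE 0.28), *Idi1* (-0.70, SE 0.31) and *Lss* (-0.69, SE 0.28). *Srebf2* was at -0.39 (interval -0.81 to 0.02), *Cyp51* at -0.38 (-0.94 to 0.19), *Insig1* at 0.02 (-0.54 to 0.58) and *Fdft1* at 0.40 (-1.05 to 1.85). The median of the members was -0.54, and that of all genes was -0.06. With median-of-ratios scaling 2 members rather than 4 had a lower effect at an unadjusted p under 0.05 (1220 of all 12210 genes). This contrast uses the same libraries as the comparisons within each sex and adds no further samples to them.

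Averaged over both sexes, KO and WT differed for 0 of 8 members by the adjusted threshold, which 2.95% of all genes passed (317 higher and 43 lower, or 235 and 222 after median-of-ratios scaling). At an unadjusted p under 0.05, 0 members were higher (21.4% of all genes) and 0 were lower (2.58%). The values ran from -0.21 for *Idi1* to 0.29 for *Fdft1*, and *Srebf2* was at 0.16 (SE 0.10). The median was -0.08 for the members and 0.13 for all genes. After median-of-ratios scaling these medians were -0.20 and 0.00. Then 1 member was lower at an unadjusted p under 0.05 (1210 of all 12210 genes).

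The sexes were then compared within each genotype, using the same libraries again. In WT mice, 0 of 8 members differed between females and males by the adjusted threshold (0.0664% of 12042 genes), and every member's adjusted p was 0.9999 after rounding. At an unadjusted p under 0.05, 0 members were higher in females (1.25% of all genes) and 0 were lower (2.18%). Log2 fold changes lay between -0.32 (*Fdft1*) and 0.25 (*Cyp51*), and *Hmgcs1* was at -0.22 (interval -0.67 to 0.24). The members' median was 0.09, beside -0.05 for all genes.

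In KO mice, *Hmgcs1* fell in females relative to males, the only member call of the 6 comparisons. Its mean TPM was 58.9 in female KO and 110.1 in male KO, and its log2 fold change was -0.93 (SE 0.19, 95% interval -1.37 to -0.50, limma adjusted p = 0.0292), a fitted ratio of 0.523. Thus 1 of 8 members passed, beside 9.28% of 12270 genes (132 higher and 1007 lower in females, or 241 and 313 after median-of-ratios scaling). Members lower in females at an unadjusted p under 0.05 numbered 4 (23.9% of all genes), and 0 were higher (5.38%). After *Hmgcs1* came *Sqle* (-0.66, SE 0.18, adjusted p 0.0557), *Lss* (-0.62, SE 0.22, adjusted p 0.101) and *Idi1* (-0.60, SE 0.24, adjusted p 0.134). The groups did not overlap, with females lower, for 2 members, *Hmgcs1* and *Sqle* (15.6% of all genes), and for 0 with females higher (2.52%). *Srebf2* (-0.23, interval -0.46 to 0.01), *Cyp51* (-0.13, -0.57 to 0.31), *Fdft1* (0.08, -0.76 to 0.91) and *Insig1* (0.09, -0.31 to 0.49) made up the rest. The members' median was -0.41, and that of all genes was -0.11. After median-of-ratios scaling 3 members were lower at an unadjusted p under 0.05 (1860 of all 12270 genes). *Sqle* was then at -0.56 (limma adjusted p 0.0994), and its groups overlapped (1.05 to 1.92 in female KO, 1.78 to 2.59 in male KO).

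The *Hmgcs1* call was close to its threshold. After median-of-ratios scaling, which took the median of all genes to 0.00 and that of the members to -0.29, *Hmgcs1* was at -0.81 with an adjusted p of 0.0580. Leaving out 1 library at a time gave log2 fold changes from -1.08 to -0.77 and adjusted p from 0.0153 to 0.104, and the call was lost without male KO replicate 2 (0.104), 3 (0.0998) or 4 (0.0920), and without female KO replicate 1 (0.0557) or 4 (0.0781). Within prefix 10 (1 library of each sex) the members' median was -0.37 with 5 of 8 below 0, and within prefix 9 (3 male and 1 female) it was -0.89 with 8 of 8 below 0. Macrophage markers differed between these groups as given above, and their part in the difference was not tested.

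Female KO libraries were not alike. On the scaled values, each member was expressed as a z-score over the 16 libraries, and the mean of the 8 z-scores was -1.41 in female KO replicate 1 and -1.22 in replicate 4, but 0.16 and 0.17 in replicates 2 and 3. Elsewhere this mean ran from -0.66 (male KO replicate 1) to 1.25 (female WT replicate 2), so that female KO replicates 1 and 4 lay below the other 14 libraries. These 2 libraries have the prefixes 10 and 9, and their mitochondrial shares were 41.4 and 45.2%. Among the other 14 libraries, only female WT replicate 4 (34.5%) was below 41.4%. Male WT replicate 2 (43.9%) and male KO replicate 2 (44.0%) also lay below the 45.2% of female KO replicate 4. Female KO replicates 2 and 3 were at 49.5 and 52.8%. Female KO replicates 1 and 4 were also the lowest of the 16 for *Fasn*, fatty acid synthase (614.3 and 327.6 TPM), and *Acly*, ATP citrate lyase, which makes the acetyl-CoA used by both pathways (31.4 and 28.0 TPM). *Fasn* was at 1113 to 6457 TPM and *Acly* at 121.3 to 922.0 TPM in the other 14 libraries. *Acly* lies among the extreme genes described below, while *Fasn* was named here after its values were seen.

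**Figure D3:**
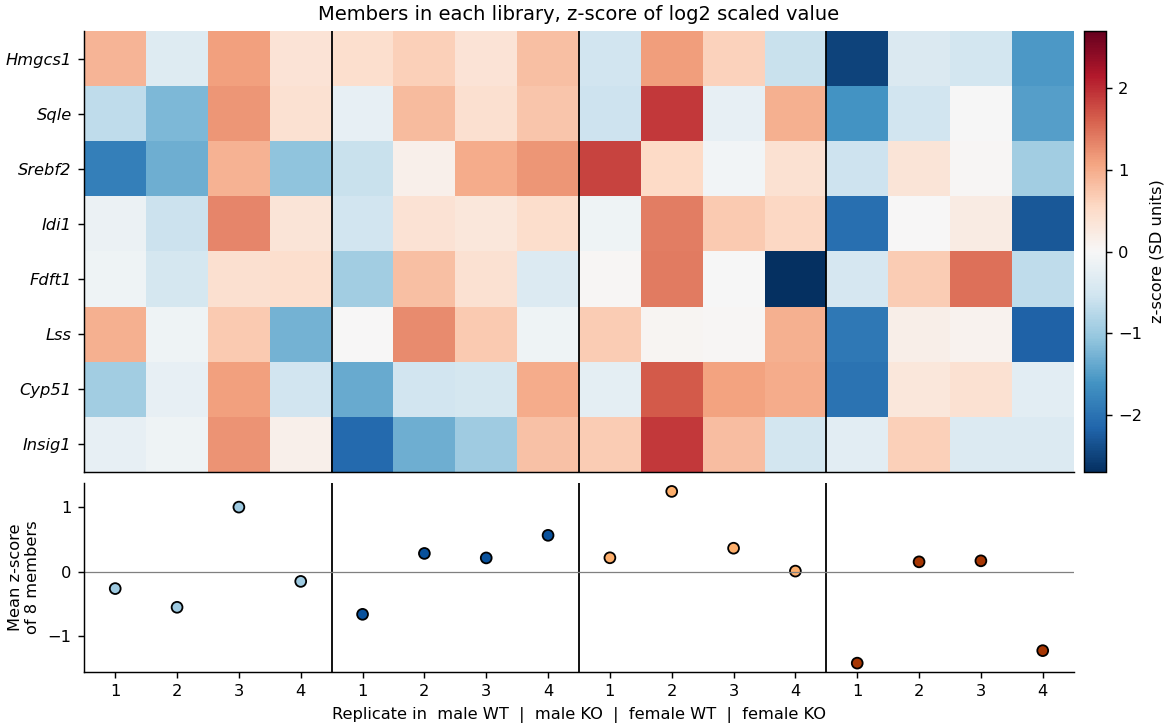
Upper panel, z-score (SD units, colour) of each member's log2 value after median-of-ratios scaling in each of the 16 libraries, grouped by sex and genotype; lower panel, the mean z-score of the 8 members per library. Female KO replicates 1 and 4 have means of -1.41 and -1.22, and replicates 2 and 3 have 0.16 and 0.17.

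Across the 16 libraries the members did not move as one. On the scaled values, the pair most alike was *Sqle* and *Idi1* (Pearson r 0.88), followed by *Hmgcs1* and *Idi1* (0.82) and *Idi1* and *Cyp51* (0.72). *Idi1* thus stood in each of the 3 highest pairs of 28. The lowest pair was *Lss* and *Insig1* (r -0.03), and *Fdft1* had its highest r with *Insig1* (0.35). These correlations are descriptions over libraries that share groups and scaling. After the group means were removed, *Sqle* and *Idi1* were still at 0.85, and *Hmgcs1* and *Fdft1*, at 0.33 before, were at 0.66.

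The level of *Srebf2* mRNA was compared with that of the other 7 members over the 16 libraries, on the deposited scale. Pearson's r ran from 0.25 (*Hmgcs1*) to 0.45 (*Lss*), and no relation passed (permutation tests, lowest adjusted p 0.177 over 7 relations). Spearman's rho was highest for *Lss*, at 0.52 (permutation p = 0.0444, adjusted 0.227), and lowest for *Cyp51*, at 0.17. Without male WT replicate 1 and female WT replicate 1, the libraries farthest from the median of *Srebf2*, r was 0.61 for *Lss*, 0.51 for *Hmgcs1* and 0.20 for both *Cyp51* and *Insig1*. When mitochondrial transcripts were removed before scaling, all 7 values of r lay between 0.58 and 0.67. The size of these correlations therefore depended on what the TPM are a share of. Within groups, *Insig1* followed *Srebf2* most closely (r 0.71 of deviations from the group means), and *Hmgcs1* least (0.15). After median-of-ratios scaling these values were 0.60 and 0.20, with *Idi1* at 0.52.

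The genes most like the members' mean z-score were ranked among 12202 non-member genes. The 10 highest were *Pdss2* (r 0.92), *Cmpk1*, *Suclg2*, *Derl1*, *Rmdn3*, *Mto1*, *Dld*, *Pdha1*, *Pdk1* and *Zfp982*, the last at 0.90. *Pdss2* encodes a subunit of the enzyme that builds the side chain of coenzyme Q from mevalonate-derived units. *Dld* and *Pdha1* encode subunits of the pyruvate dehydrogenase complex, *Pdk1* a kinase that inhibits it, and *Suclg2* a subunit of a citric acid cycle enzyme. *Pdha1* was at 473.6 ± 120.0 TPM in male WT, 630.8 ± 112.9 in male KO, 513.6 ± 82.8 in female WT and 340.2 ± 123.9 in female KO (SD, n = 4). The group means of *Hmgcs1*, *Idi1*, *Lss* and *Sqle* in deposited TPM were likewise highest in male KO and lowest in female KO. After median-of-ratios scaling they were still lowest in female KO, but *Idi1* and *Sqle* were highest in female WT (8.41 and 2.43, against 7.28 and 2.28 in male KO), and *Hmgcs1* was at 99.5 in male WT and 99.97 in male KO. The other members did not share this order in deposited TPM. *Fdft1* was highest in female KO (10.4) and *Cyp51* in female WT (3.88). *Insig1* was lowest in male KO (56.4) and *Srebf2* in male WT (8.78). The first gene of sterol synthesis itself was *Nsdhl*, a sterol dehydrogenase, at rank 64 (r 0.87), followed at rank 65 by *Acss2*, acetyl-CoA synthetase.

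The other genes of the pathway were described with fixed lists. Of 15 further genes of mevalonate and sterol synthesis, 0 passed in males (median 0.20, all genes 0.16) and 0 in females (median -0.20, all genes 0.10). At an unadjusted p under 0.05 limma gave 1 higher in male KO (17.7% of all genes), and 5 lower (5.46%) and 2 higher (11.6%) in female KO. After median-of-ratios scaling the medians were 0.06 in males and -0.30 in females. Then 1 gene was higher (1010 of all 12177 genes) and 1 lower (901) in male KO. In female KO 6 were lower (1264 of all 12141 genes) and 1 higher (1214). In males the extremes were *Ebp*, a sterol isomerase, at -0.19 and *Mvd*, mevalonate diphosphate decarboxylase, at 0.46. In females they were *Sc5d*, a sterol desaturase, at -0.70 and *Tm7sf2*, a sterol reductase, at 0.53. Averaged over the sexes, the highest of the list was *Lbr*, a sterol reductase of the nuclear envelope, at 0.45.

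Between the sexes of the KO genotype, 4 of these 15 genes fell in females, beside 9.28% of all genes called (132 higher and 1007 lower). They were *Sc5d* (log2 fold change -1.36, limma adjusted p 0.0313), *Nsdhl* (-0.89, 0.0329), *Fdps*, farnesyl diphosphate synthase (-0.76, 0.0388), and *Mvd* (-0.59, 0.0359). In TPM, *Sc5d* was at 17.8, 33.5, 28.3 and 25.8 in male KO and at 6.24, 12.7, 14.5 and 7.59 in female KO. *Fdps* was at 24.5, 37.0, 31.5 and 33.9 in male KO and at 17.1, 21.04, 22.4 and 13.8 in female KO. Neither gene overlapped between these groups, where 15.6% of all genes were lower in females without overlap. Female KO replicates 1 and 4 were again the low libraries. Not all sterol genes lay that way, since *Ebp* was at 0.39 (adjusted p 0.0728) and *Tm7sf2* at 0.55 (0.0675), both without overlap and with females higher (2.52% of all genes). The list's median was -0.37, and 12 of 15 were below 0, as were 7842 of all 12270 genes. After median-of-ratios scaling the list's median was -0.25, and 9 of 15 were below 0 (6068 of all genes). Under median-of-ratios scaling the 4 lower calls were lost (adjusted p 0.0548 to 0.0762), and *Ebp* and *Tm7sf2* passed as higher (0.0487 and 0.0456).

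A further list held 10 other genes of sterol sensing and SREBF processing, measured as mRNA. None passed in males (median 0.21, all genes 0.16) or females (median -0.02, all genes 0.10). At an unadjusted p under 0.05, 4 were higher in male KO (17.7% of all genes) and 1 was lower in female KO (5.46%). After median-of-ratios scaling 0 were higher in male KO (1010 of all 12177 genes), with a male median of 0.05. In female KO 1 was then lower (1264 of all 12141 genes). *Srebf1* was highest in males (0.47) and *Mbtps2*, a protease that cuts SREBPs, lowest (0.01). In females, *Erlin2*, an endoplasmic reticulum protein that takes part in sterol sensing, was lowest (-0.60) and *Erlin1* highest (0.10). Averaged over the sexes, values ran from -0.27 (*Erlin2*) to 0.17 (*Ubxn8*). In KO mice, 2 of the 10 fell in females relative to males (9.28% of all genes were called), namely *Insig2*, the relative of *Insig1* (-0.48, adjusted p 0.0218), and *Mbtps1*, the first protease of the cleavage (-0.33, 0.0423). *Insig1*, by contrast, was at 0.09 in the same fit. With median-of-ratios scaling, neither *Insig2* (0.0504) nor *Mbtps1* (0.111) passed.

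For uptake and intracellular transport, 10 of 11 genes were tested, with 0 calls by limma within either sex and, at an unadjusted p under 0.05, 2 genes higher in male KO (17.7% of all genes) and 4 higher in female KO (11.6%). After median-of-ratios scaling 0 were higher in male KO (1010 of all 12177 genes). In female KO 3 were then higher (1214 of all 12141 genes) and 1 lower (1264). In KO mice, 2 of the 10 fell in females relative to males, beside 9.28% of all genes called. *Lipa*, the lysosomal lipase that frees cholesterol from its esters, was 1 of them (-0.63, SE 0.16, limma adjusted p 0.0426). Under median-of-ratios scaling 0 of the 10 were called (0.0667 for *Lipa*). *Stard4*, a sterol carrier, was the lowest in males (-0.10), and *Mylip*, a ubiquitin ligase, the highest in females (0.83) and on average (0.50), where *Lipa* was lowest (-0.03).

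Efflux and LXR genes, many of which rise when sterols are plentiful, showed 0 limma calls in each of the 6 comparisons, in which 6 or 7 of the 12 listed genes could be tested. At an unadjusted p under 0.05, 3 were higher (11.6% of all genes) and 1 lower (5.46%) in female KO, and 0 differed in males. Their median was 0.17 in males (all genes 0.16) and 0.44 in females (all genes 0.10). After median-of-ratios scaling these list medians were 0.00 and 0.33. Then 1 gene was lower in male KO at an unadjusted p under 0.05 (901 of all 12177 genes). *Apoe*, the lipid-carrying apolipoprotein, was lowest in males (-0.28) and highest in females (0.77, SE 0.33, adjusted p 0.288). *Abcg1*, a cholesterol exporter, was highest in males (0.26) and on average (0.41). *Abca1*, another exporter, was lowest in females (-0.50, SE 0.14, adjusted p 0.231) and on average (-0.37, adjusted p 0.0508, and 0.0115 at -0.50 under median-of-ratios scaling).

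The isoprenoid branch, which uses mevalonate for coenzyme Q, dolichol and protein prenylation, had 8 genes. Within either sex 0 passed in limma (2 higher in male KO, beside 17.7% of all genes, and 0 in females at an unadjusted p under 0.05), with log2 fold changes from 0.04 (*Pggt1b*, a prenyltransferase subunit) to 0.32 (*Dhdds*, of dolichol synthesis) in males and from -0.17 (*Pdss2*) to 0.03 (*Dhdds*) in females. Averaged over the sexes, they ran from -0.01 (*Pdss1*) to 0.17 (*Dhdds*). After median-of-ratios scaling 0 genes of the branch were higher in male KO at an unadjusted p under 0.05 (1010 of all 12177 genes). In KO mice, *Coq2*, a coenzyme Q synthesis enzyme, fell in females (-0.45, limma adjusted p 0.0394, and 0.0835 under median-of-ratios scaling), beside 9.28% of all genes called. In the same comparison 8 of 8 branch genes were below 0, as were 7842 of all 12270 genes. After median-of-ratios scaling these counts were 7 and 6068.

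Fatty acid synthesis genes linked to SREBF1 spread much more widely than the sterol genes. In males 0 of 10 passed in limma (5 higher at an unadjusted p under 0.05, beside 17.7% of all genes), with a median of 0.82 and a range from 0.36 (*Fads1*) to 1.30 (*Scd1*, stearoyl-CoA desaturase). After median-of-ratios scaling the male median was 0.65, and 0 were higher at an unadjusted p under 0.05 (1010 of all 12177 genes). In females 0 of 10 passed, with a median of -1.16 and a range from -2.23 (*Acly*) to 0.49 (*Fads2*), and 8 were lower (5.46% of all genes) and 1 higher (11.6%) at an unadjusted p under 0.05. In KO mice, *Scd1* (-2.44, SE 0.46, adjusted p 0.0254) and *Me1*, malic enzyme (-1.83, SE 0.41, 0.0347), fell in females relative to males, 2 of 10 beside 9.28% of all genes called. *Scd1* was at 2097, 5777, 5982 and 5995 TPM in male KO and at 571.9, 1070, 1627 and 497.3 in female KO, with no overlap (15.6% of all genes were lower without overlap). *Scd1* kept its call under median-of-ratios scaling (0.0413) and *Me1* did not (0.0546), while *Fads1*, a fatty acid desaturase at 0.39 with an adjusted p of 0.0534, passed there as higher in females (0.51, 0.0492). Averaged over the sexes, the range was from -0.63 (*Acaca*, acetyl-CoA carboxylase) to 0.44 (*Fads2*, a fatty acid desaturase), and *Fads2* rose (SE 0.11, adjusted p 0.0472, and 0.0502 under median-of-ratios scaling).

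**Figure D4:**
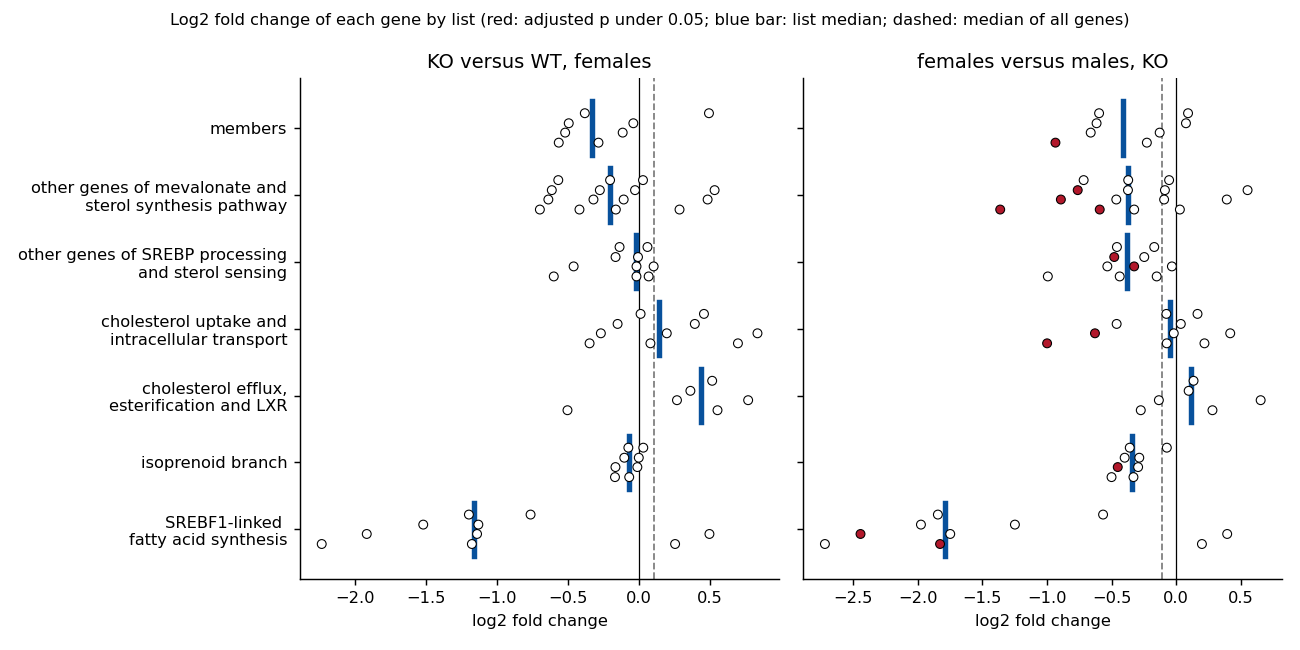
Log2 fold change (x axis) of each tested gene, as points, in the members and 6 further lists (rows), for KO against WT in females and for females against males in KO; red points have an adjusted p under 0.05, blue bars are list medians and the dashed line is the median of all genes. In the right panel the members' median is -0.41, and the fatty acid synthesis genes reach -2.72 (*Acly*).

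The TPM of a gene were summed over all its transcripts, and for some members much of that sum lay in models that encode no protein. In *Lss*, retained-intron models took 52.7% of the gene's TPM on average and the protein-coding models 44.6%. *Srebf2* had 38.6% in retained-intron models, nearly all of it in 1 model, *Srebf2-205* (36.6%). For *Hmgcs1* and *Idi1* the protein-coding share was 99.6 and 99.8%. *Sqle* (94.99%), *Insig1* (92.0%), *Fdft1* (86.8%) and *Cyp51* (86.7%) lay between. Estimates for models that share most of their sequence are less certain than the gene's sum.

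Counting protein-coding transcripts only moved the values of *Lss*, *Fdft1* and *Cyp51*. *Lss-201*, the main coding model, was at 2.63, 3.08, 4.64 and 4.34 TPM in male WT, 2.98, 5.36, 4.65 and 5.24 in male KO, 3.77, 4.30, 4.04 and 4.25 in female WT and 1.93, 3.88, 2.49 and 1.88 in female KO. Its female KO values lay below female WT in 3 of 4 libraries. On coding transcripts, *Lss* had a log2 fold change of -0.64 in females (adjusted p 0.162) and of -0.75 between female and male KO (adjusted p 0.0576), against -0.38 and -0.62 on the gene's sum. *Sqle* passed on coding transcripts between female and male KO (-0.71, adjusted p 0.0360). In *Fdft1*, the coding model *Fdft1-201* was at 0.309 TPM in female WT replicate 4 and at 4.75 to 15.1 TPM in the other 15 libraries, and *Fdft1-202*, a nonsense-mediated decay model, took 73.1% of the gene's TPM there. *Cyp51-202*, a processed transcript, took 25.9 ± 7.07% of *Cyp51* in female WT and 1.75 ± 3.51% in male WT, a difference that was not tested, and on coding transcripts *Cyp51* was at -0.12 rather than 0.25 in females against males of the WT genotype.

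**Figure D5:**
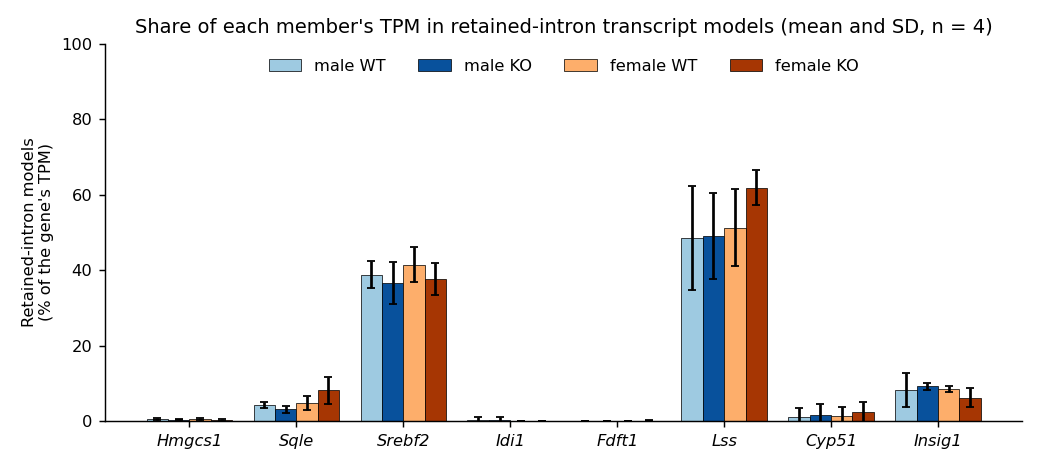
Share of each member's TPM in retained-intron transcript models (y axis, % of the gene's TPM, from 0), as the mean (bar) and SD (n = 4) in each group. *Lss* and *Srebf2* stand out, with means over all libraries of 52.7 and 38.6%.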

How the data were processed

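The authors prepared stranded mRNA libraries from BAT, sequenced single-end reads, and deposited the abundance of each transcript as TPM from kallisto 0.46.2. The genome build in the submitters' processing notes is GRCm39, and the release of the transcript annotation is not given in the sources used here, so coordinates are printed only for RefSeq promoters, with their own build. TPM are shares of a fixed sum, keep no read counts, and allow no counting interval, so that the spread between libraries is the only measure of precision. Of 137438 transcripts, 135051 were found in GENCODE mouse release M21 after version numbers were removed, and 2387 were not and were left out of gene sums. Sex, genotype and replicate number came from the sample labels.

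TPM were summed per gene symbol and transformed to log2(TPM + 0.5), so fold changes understate those of low genes. Genes averaging at least 1 TPM in the libraries compared were fitted with limma 3.58.1 in R 4.3.3 (lmFit, and eBayes with a trend), and p-values were adjusted over all genes tested with the Benjamini-Hochberg procedure (threshold 0.05). Single measures were compared with exact two-sided permutation tests (smallest p 0.0286 for 4 against 4), and correlations with 100000 permutations, in scipy 1.17.1. The procedure was tested on simulated data.

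The members, lists, motifs and tests were chosen with earlier results of these data known. Named genes are the members, of each further list the genes past the threshold in any comparison and the highest and lowest in each KO versus WT comparison, *Gdf15*, and the 10 genes most like the members' mean z-score; some of the genes so chosen are not reported here. Marker lists were also summed for white adipocytes (54.0 to 138.9 TPM), lymphocytes (1.85 to 5.54), Schwann cells (11.5 to 44.0), skeletal muscle (1.92 to 4085) and erythroid cells (1599 to 8163, with exact p = 0.0286 between the sexes of WT mice). Other settings tried were a pseudocount of 1 or 0.1, no minimum or a minimum of 5 TPM, median-of-ratios scaling, removal of mitochondrial transcripts, protein-coding transcripts only, no trend, the library-name prefix, the replicate block, a fit of all 16 libraries, and leaving out each library.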

Additional observations from a re-analysis of the deposited data

Results flagged for a closer look

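In 48 groups of 4 libraries examined, 32 of them a member's TPM in a group, 2 values stood far from the other 3 of their group by Dixon's criterion, which chance alone does in about 1 in 20 groups. Both belong to female WT replicate 4. *Insig1* was at 46.5 TPM there and between 69.4 and 72.0 TPM in the other female WT libraries, a gap of 0.901 of the group's range. Transcripts without a match in the annotation took 17.7% of its TPM, a gap of 0.994 of the range, and a single transcript took 16.5%. The same library held the lowest *Fdft1* value of the 16 (1.71 TPM), which did not meet the criterion. What part the unmatched share has in the *Insig1* value was not tested.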

How the results depend on the processing

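The counts of members called were 0 in the other 5 comparisons under every alternative that could be run, and changed for females against males in KO. There, 1 member passed as reported, and 0 passed with no TPM minimum, after median-of-ratios scaling or after removal of mitochondrial transcripts. Coding transcripts alone gave 2 (*Hmgcs1* and *Sqle*), and the library-name prefix as a covariate gave 4 (*Hmgcs1*, *Sqle*, *Idi1* and *Lss*). Leaving out 1 library at a time gave 0 to 3. How many of all genes passed under these settings is not reported here. These counts therefore cannot be read as particular to the members. The adjusted p of *Hmgcs1* was 0.0680 with no minimum and 0.0521 without mitochondrial transcripts; the causes were not tested. No comparison's median over the members moved by more than the spread between libraries (pooled SD 0.23 to 0.28 on the log2 scale). This bound is wide, since in males the median fell from 0.17 to -0.00 under median-of-ratios scaling and stayed within it. It therefore does not show that the medians were stable. The prefix covariate could not be fitted for females against males in WT, and a minimum mean TPM of 5 left out *Sqle* and *Cyp51*.

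With the replicate number as a paired term (replicate block), 2 members passed between female and male KO, *Hmgcs1* and *Lss*. How many of all genes passed in that fit is likewise not reported here. No member call changed in the other comparisons. Same-numbered libraries correlated between -0.11 and 0.35 in their deviations from the group means, and not every library matched its own number best, so the numbers were not taken to pair the samples.

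TPM keep no depth, and *Sqle* and *Cyp51*, at 2 to 3 TPM on average, rest on the lowest values. The causes of the changes of sign below were not tested. Of the members' log2 fold changes, 13 changed sign under a setting that left no library out, each of the 13 with an adjusted p over 0.5. In males these were *Idi1* (-0.0281), *Fdft1* (-0.0726) and *Cyp51* (-0.0592) with median-of-ratios scaling, *Fdft1* without mitochondrial transcripts (-0.0099), *Cyp51* on coding transcripts (-0.0103) and *Idi1* with the prefix (-0.031). In females *Srebf2* was at 0.046 on coding transcripts. With the prefix, *Insig1* was at -0.20 in the interaction, *Lss* at 0.0114 on average and *Fdft1* at -0.33 between the sexes of KO mice. Between the sexes of WT mice, *Lss* (-0.0108) and *Insig1* (-0.0153) changed sign without mitochondrial transcripts and *Cyp51* (-0.12) on coding transcripts. With 1 library left out, 15 crossed 0. In males *Fdft1* ran from -0.13 to 0.32 and *Cyp51* from -0.0488 to 0.21, and in females *Srebf2* from -0.094 to 0.0722 and *Fdft1* from -0.0811 to 0.83. In the interaction *Insig1* ran from -0.13 to 0.16 and *Fdft1* from -0.17 to 0.74, and on average *Sqle* from -0.14 to 0.0085 and *Lss* from -0.11 to 0.0284. Between the sexes of WT mice the ranges were -0.0156 to 0.24 for *Idi1*, -0.0454 to 0.22 for *Insig1*, -0.0497 to 0.16 for *Lss* and -0.66 to 0.25 for *Fdft1*, and of KO mice -0.16 to 0.29 for *Fdft1*, -0.0382 to 0.23 for *Insig1* and -0.25 to 0.0132 for *Cyp51*.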
